A study of Mus musculus with 21 samples.

Results

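The genes Zfp51, Zfp948, Slc22a29, Nlrp12, Nufip2 and Gm15527 were followed in mouse liver after blockade of microRNA-122. They are 6 of the 18193 genes measured and are covered by 9 of 45101 probe sets. They were chosen by their measured values in these arrays, namely a large decrease at day 3 or a large change of the treatment effect around day 3, so their values at days 3 and 9 are given as a description with no test. Only the comparison of day 23, made on other mice and in another array set, was not used to choose them and is tested.

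The treated mice received SPC3372, an antisense oligonucleotide with locked nucleic acid (LNA) bases that binds microRNA-122, at 25 mg per kg on day 2. The other mice received saline on the same day. All were female mice of NMRI, an outbred stock, so mice of a group are not genetically identical. On each of days 3, 9 and 23 the livers of 3 treated and 3 saline mice were collected, and total liver RNA was hybridised to Affymetrix mouse arrays. The arrays carry 2 set names, p0617 for days 3 and 9 and p0621 for day 23, and RNA of the 3 treated mice killed last, on day 23, is present in both sets. Values are log2 expression per probe set, where a step of 1 is a doubling, and the 3 arrays of a group limit their precision.

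MicroRNA-122 is abundant in hepatocytes and lowers the messenger RNAs that carry sites for it, and its direct targets are known to lie higher after blockade. The 6 genes have little known in common. Zfp51 and Zfp948 belong to a cluster of zinc finger genes, a class of DNA-binding proteins of which many carry a KRAB domain that recruits the co-repressor Trim28. Slc22a29 belongs to the Slc22 family of organic ion transporters, which in liver and kidney carry anions and drugs across the cell membrane. Nlrp12 is a NOD-like receptor known as a brake on inflammatory signalling in myeloid cells. Nufip2 is an RNA-binding protein that interacts with the fragile X protein and enters stress granules. Gm15527 is annotated by RefSeq as a long noncoding RNA, and no function is given to it here.

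The 250 bases before the annotated start are shown for 4 of the 6 genes, namely Zfp948, Slc22a29, Nlrp12 and Gm15527. The sequences come from RefSeq on build GRCm38.p6, which is the C57BL/6J reference and not NMRI, and capitals mark a match to TATAAA or to CCAAT or to GGGCGG on either strand. A window was found for 5 of the 6 genes, the exception being Zfp51.
Zfp948 (chr17:21566728-21566977, plus strand): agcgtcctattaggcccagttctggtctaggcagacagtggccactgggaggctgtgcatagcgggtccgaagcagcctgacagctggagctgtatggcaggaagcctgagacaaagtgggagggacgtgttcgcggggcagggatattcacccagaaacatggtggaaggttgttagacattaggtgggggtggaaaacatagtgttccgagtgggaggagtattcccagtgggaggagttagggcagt
Slc22a29 (chr19:8218901-8219150, minus strand): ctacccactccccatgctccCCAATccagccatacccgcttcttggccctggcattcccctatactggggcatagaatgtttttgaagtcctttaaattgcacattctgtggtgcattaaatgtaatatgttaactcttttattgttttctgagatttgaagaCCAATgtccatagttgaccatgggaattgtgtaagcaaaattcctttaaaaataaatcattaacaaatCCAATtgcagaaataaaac
Nlrp12 (chr7:3249741-3249990, minus strand): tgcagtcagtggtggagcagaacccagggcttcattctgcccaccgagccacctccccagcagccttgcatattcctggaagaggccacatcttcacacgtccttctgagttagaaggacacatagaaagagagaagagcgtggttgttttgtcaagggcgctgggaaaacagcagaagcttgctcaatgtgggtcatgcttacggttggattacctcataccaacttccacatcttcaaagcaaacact
Gm15527 (chr6:54254995-54255244, minus strand): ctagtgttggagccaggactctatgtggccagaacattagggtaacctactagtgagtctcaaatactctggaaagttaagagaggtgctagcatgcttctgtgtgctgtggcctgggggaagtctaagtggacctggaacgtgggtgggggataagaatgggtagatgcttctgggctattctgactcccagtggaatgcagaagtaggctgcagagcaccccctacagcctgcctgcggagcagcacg
No motif occurs in all 4 windows. Slc22a29 holds CCAAT at 3 places, 230, 87 and 19 bases before the start on the strand of the gene, and is poor in G and C at 38%. The windows of Zfp948, Nlrp12 and Gm15527 hold no match, with 56.4%, 50.8% and 53.6% G and C. The window of Nufip2, not printed, holds CCAAT and GGGCGG once each at 60.8% G and C. Over 32851 such windows, 33.8% hold CCAAT, 32.7% hold GGGCGG and 12.4% hold TATAAA, and the median content of G and C is 52.4%. A match is a description of the letters and not of a factor bound there.

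The arrays were alike in quality within groups, with correlations of 0.9919 to 0.9949 between mice of a group over all probe sets. The hepatocyte markers marked the tissue as labelled, with a summed log2 level of 17.06 to 17.15 in treated and 17.04 to 17.12 in saline livers over all days. The groups overlapped at days 3 and 9. At day 23 the sum was wholly higher in treated livers, at 17.13 to 17.15 against 17.08 in saline livers. Aldoa, a glycolytic enzyme gene known as a microRNA-122 target, was 0.82 higher on the log2 scale in treated livers at day 3 and 0.77 higher at day 9, and both differences passed the test (limma adjusted p = 2.29e-05 and 0.000133). Bckdk and Ndrg3, used as the same kind of check, were higher by 1.15 and 0.87 at day 3 (adjusted p = 2.38e-05 and 0.00249). At day 23 none of these 3 genes passed, with differences of 0.34 for Aldoa, 0.54 for Bckdk and 0.38 for Ndrg3 (adjusted p = 0.0719, 0.0509 and 0.262). The log2 ratio of the 3' to the 5' probe set of beta-actin, a control for intact RNA, was 1.03 ± 0.02 in treated and 0.80 ± 0.05 in saline livers at day 3, 1.14 ± 0.02 and 0.93 ± 0.06 at day 9, and 1.15 ± 0.16 and 1.16 ± 0.04 at day 23 (SD, n = 3 each). Its part in the differences of days 3 and 9 was not tested. In whole liver, fewer cells of a type and less RNA per cell cannot be told apart.

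As a set, the 6 genes had a median log2 difference of treated minus saline of -1.10 at day 3, -0.21 at day 9 and 0.30 at day 23, against 0.01, -0.02 and -0.02 over all 18193 genes. The 3 treated livers lay wholly below the 3 saline livers in 5 of 6 genes at day 3, in 1 at day 9 and in 1 at day 23. The same held for 10.4%, 11.2% and 11.1% of all genes on those days. The day 3 count follows from how the genes were chosen. Treated livers lay wholly above saline livers in 1 gene at day 9 and in 3 genes at day 23, against 10.4% and 8.12% of all genes. Of the 6 genes, 1 passed the limma test at day 23 as higher and 0 as lower, beside 0.187% and 0.198% of all genes, and 4 had an adjusted p above 0.2. The day 23 values, and so their median, depend on the array set. With the p0617 arrays of the treated mice, a comparison across the sets, Zfp51, Zfp948 and Slc22a29 differed by 0.10, -0.12 and -0.37. Nlrp12, Nufip2 and Gm15527 differed by -1.28, 0.45 and 0.96 in that comparison.

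**Figure D1:**
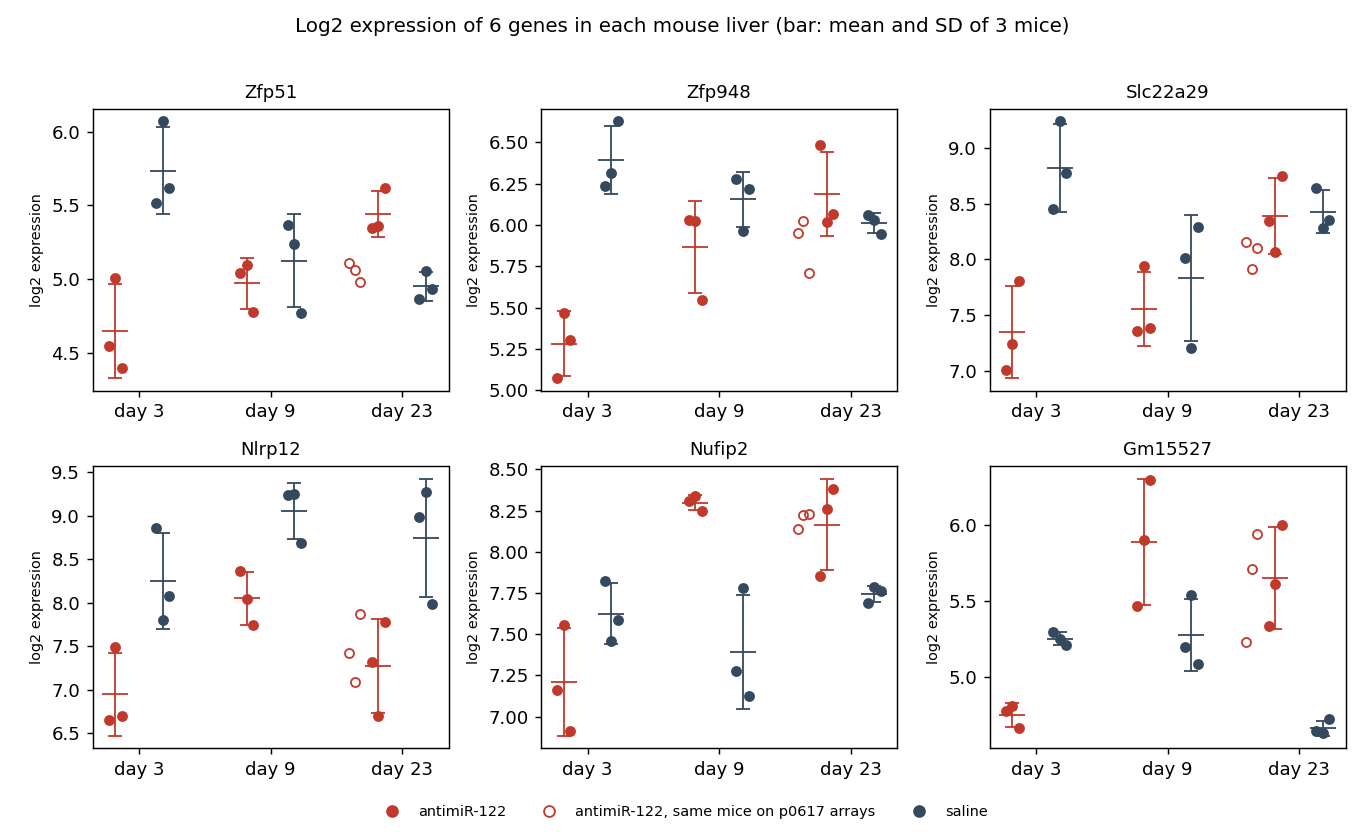
Log2 expression of the 6 genes in each liver, by day on the x axis, with treated livers in red left of saline livers in dark blue. Filled points are the arrays compared, open red points are the same treated mice of day 23 on p0617 arrays, and bars give the mean and SD of 3 mice. Zfp51, Zfp948 and Slc22a29 separate at day 3, Nlrp12 separates on every day, and Gm15527 lies lower in treated livers at day 3 and higher at day 23.

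Zfp51 stood low in treated livers at day 3 and high in saline livers of the same day. The log2 levels were 4.54, 5.01 and 4.4 in treated livers, against 5.51, 6.07 and 5.62 in saline livers. The difference of -1.09 (SE 0.18) is a 2.12-fold lower level, and the groups did not overlap. The treated mean of 4.65 is a dim value, under the array-wide median of 4.79, and the RMA summary shrinks folds at that end of the scale. At day 9 the levels were 5.04, 5.10 and 4.77 in treated and 5.37, 5.24 and 4.77 in saline livers, which overlapped (difference -0.15, SE 0.18). Without saline replicates 1, 2 and 3 in turn it was -0.03, -0.10 and -0.33, and without treated replicate 3 it was -0.05. Between these days the saline mean changed more, and it was 0.61 lower at day 9 than at day 3, while the treated mean was 0.32 higher. Among the 6 group means, saline at day 3 was the highest at 5.73 ± 0.30 and treated at day 3 the lowest at 4.65 ± 0.32 (SD, n = 3), and every pair of neighbours in this order overlapped.

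At day 23 Zfp51 turned to the other side without passing the test. Treated livers had 5.35, 5.36 and 5.62, against 4.86, 5.06 and 4.94 in saline livers, a log2 difference of 0.49 (SE 0.18, limma adjusted p = 0.208). The groups did not overlap, but the value depends on the array set. The same 3 treated mice had 5.11, 5.06 and 4.98 on p0617 arrays, lower than on p0621 arrays by 0.24, 0.29 and 0.64, and with these arrays the difference was 0.10 (adjusted p = 0.838). That comparison sets p0617 arrays against p0621 saline arrays, so it crosses the sets.

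Zfp948, a neighbour of Zfp51 in the same cluster, had the day 3 difference with the smallest SE of the 6 genes. Treated livers had 5.07, 5.47 and 5.30, against 6.23, 6.32 and 6.63 in saline livers, which is -1.11 on the log2 scale (SE 0.15) or 2.16-fold lower. At day 9 treated livers had 6.03, 6.02 and 5.54 and saline livers 6.28, 5.97 and 6.22. The groups then overlapped, with a difference of -0.29 (SE 0.15; -0.13 without treated replicate 3), and here the treated mean was the one that moved more, by 0.58 from day 3 to day 9 against -0.24 in saline livers. The treated livers of day 3 were the lowest group at 5.28 ± 0.20 and stood apart from the next group, treated livers of day 9 at 5.87 ± 0.28 (SD, n = 3), whereas the other neighbours in the order overlapped. At day 23 treated livers had 6.48, 6.02 and 6.06 and saline livers 6.06, 6.03 and 5.94, a difference of 0.18 (SE 0.15, limma adjusted p = 0.673), which became -0.12 (adjusted p = 0.76) with the p0617 arrays of the treated mice. The second Zfp948 probe set was dim, with group means of 3.57 to 3.85, and differed by -0.21 (SE 0.16) at day 3, 0.04 at day 9 and -0.11 at day 23, so the day 3 pattern rests on 1 of 2 probe sets.

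Some close neighbours of Zfp51 and Zfp948 were also lower in treated than in saline livers at day 3. Such genes were taken as those within 10 genes of either one in the RefSeq order, without these members. Of 12 measured, 2 were lower and 0 higher at day 3 by limma, beside 1.88% and 2.63% of all genes. They were Zfp54, the nearest tested gene before Zfp51, and Zfp983, the nearest after Zfp948. Zfp54 had 4.17, 3.93 and 4.39 in treated livers, against 4.76, 4.94 and 5.12 in saline livers, a log2 difference of -0.78 (SE 0.16, adjusted p = 0.00768). With the mean of its probe sets in place of the brightest one, that difference was -0.26 (adjusted p = 0.141). The treated mean of Zfp54 at day 3, 4.17, is a dim value, under the array-wide median of 4.79. Zfp983 had 5.77, 5.77 and 5.56 in treated livers, against 6.09, 6.60 and 6.56 in saline livers, a difference of -0.72 (SE 0.18, adjusted p = 0.0289), and its call ended in 5 of 6 fits that left out 1 array and in the fit on the arrays of the day (adjusted p up to 0.121). On days 3, 9 and 23 the treated means were 4.17, 4.14 and 4.35 for Zfp54 and 5.70, 5.57 and 5.77 for Zfp983. The saline means were 4.94, 4.32 and 4.42 for Zfp54 and 6.42, 5.53 and 5.88 for Zfp983. For both genes the days thus differed more on the saline side, which stood highest at day 3.

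The other nearest neighbours differed by less at day 3. Zfp53, the nearest tested gene after Zfp51, differed by -0.51 at day 3 (SE 0.18, adjusted p = 0.116), and Zfp52, the nearest before Zfp948, was dim at 3.44 in treated and 3.38 in saline livers and differed by 0.07 (SE 0.14). The 12 genes ranged from -0.78 to 0.12 at day 3 with a median of -0.10, and 7 of them lay lower in treated livers. At days 9 and 23, 0 of the 12 rose and 0 fell, beside 1.91% higher and 0.896% lower of all genes at day 9, with medians of -0.01 and 0.16. Zinc finger genes of a cluster resemble each other in sequence, so probes of one can take up RNA of another, and their values are uncertain in that respect. Of 8 genes of the KRAB co-repressor complex, 0 passed at any day, and Trim28 itself differed by 0.02 at day 3 (9.62 in treated and 9.60 in saline livers).

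**Figure D2:**
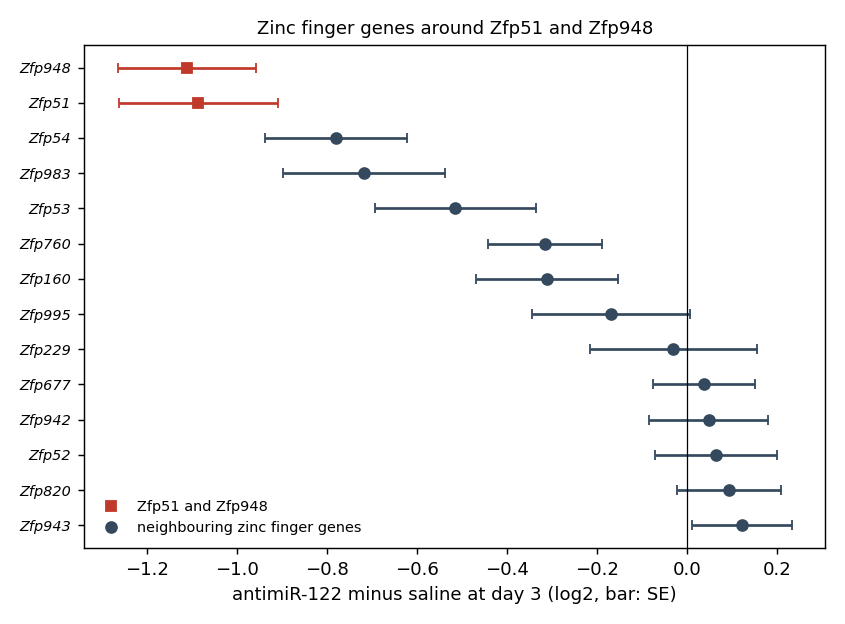
Log2 difference of treated minus saline livers at day 3 on the x axis, with the SE of the fit as the bar, for Zfp51 and Zfp948 (red squares) and the 12 neighbouring zinc finger genes (dark blue circles), ordered by the difference. Zfp948 and Zfp51 stand near -1.1, Zfp54 and Zfp983 near -0.75, and the others lie between -0.51 and 0.12.

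Slc22a29 had the largest day 3 difference of the 6 genes. Its log2 levels were 7.0, 7.24 and 7.81 in treated livers, against 8.46, 9.24 and 8.77 in saline livers. The difference was -1.47 (SE 0.27), or 2.77-fold lower, and the groups did not overlap. By day 9 the groups overlapped, with 7.36, 7.94 and 7.38 in treated and 8.01, 7.20 and 8.29 in saline livers (difference -0.28, SE 0.27). That difference was -0.05 without saline replicate 3 and -0.59 without saline replicate 2, and -0.17 and -0.47 without treated replicates 1 and 2. That change lay mostly on the saline side, where the mean was 0.99 lower at day 9 than at day 3, while the treated mean was 0.21 higher. At day 23 treated livers had 8.35, 8.07 and 8.75 and saline livers 8.65, 8.28 and 8.36, a difference of -0.04 (SE 0.27, limma adjusted p = 0.969). This value depends on the array set. The same treated mice had 7.91 to 8.16 on p0617 arrays, below all saline livers, and the difference with these arrays was -0.37 (limma adjusted p = 0.543). That comparison crosses the sets. In the order of the 6 group means, saline at day 3 led at 8.82 ± 0.39 and treated at day 3 came last at 7.35 ± 0.41 (SD, n = 3), and all neighbours overlapped.

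The Slc22a29 probe set is of a type whose probes can match related transcripts, so RNA of close family members may enter its value. A second probe set carries the names of Slc22a30 and Slc22a29 together and stands for neither. It read 6.87, 5.93 and 7.30 in treated livers at day 3, against 8.21, 9.49 and 8.32 in saline livers, a difference of -1.97. At days 9 and 23 it differed by -0.19 and -0.30, with overlap on both days. The probe set of Slc22a30 alone, the nearest tested gene after Slc22a29, stood near 10.7 in both groups at day 3 and differed by -0.01 (SE 0.14, adjusted p = 0.981). Slc22a27, the nearest before it, had 8.23, 8.07 and 8.23 in treated livers, against 8.07, 8.93 and 9.31 in saline livers, and differed by -0.60 (SE 0.34, adjusted p = 0.379). Of 20 measured Slc22 genes without the member, 1 rose and 0 fell at day 3, beside 2.63% and 1.88% of all genes, and 0 passed at day 9 or day 23. The gene that rose was Slc22a15 (log2 0.67, SE 0.16, adjusted p = 0.022), whose call ended in 4 of 6 fits that left out 1 array (adjusted p up to 0.203 over all its alternatives). The family had a median difference of 0.05 at day 3, -0.04 at day 9 and -0.09 at day 23.

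Nlrp12 lay lower in treated livers on all 3 days. At day 3 treated livers had 6.65, 7.49 and 6.70, against 8.86, 7.80 and 8.08 in saline livers. The log2 difference was -1.30 (SE 0.35), or 2.46-fold lower. At day 9 treated livers had 8.36, 8.05 and 7.74, against 9.24, 9.24 and 8.68 in saline livers, a difference of -1.0 (SE 0.35). Groups were apart on both days, and from day 3 to day 9 the treated mean was up by 1.10 and the saline mean by 0.81, so the level moved while the difference between the arms moved by 0.30 (SE 0.49).

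On day 23, which did not choose the gene, Nlrp12 had 7.32, 6.70 and 7.78 in treated livers, against 8.98, 9.27 and 7.98 in saline livers. The difference of -1.47 (SE 0.35), 2.78-fold lower, did not pass the test over all genes (limma adjusted p = 0.0608). It passed where only genes above the median level were tested (adjusted p = 0.0468) or only those above the 75th percentile (adjusted p = 0.0294). In those settings 214 and 389 genes passed at day 23, against 70 over all genes. Nlrp12 passed in no other setting. Its limma adjusted p was 0.184 in the fit on the arrays of the day alone and 0.164 with the replicate block. It was up to 0.199 when 1 array was left out. With the p0617 arrays of the treated mice, which crosses the sets, the difference was -1.28 (limma adjusted p = 0.0768). All 3 treated livers lay below all 3 saline livers, with the closest pair at 7.78 and 7.98. The 3 treated mice had 7.42, 7.09 and 7.87 on p0617 arrays, within 0.38 of their p0621 values. In the order of the 6 means the 3 saline groups came first, from 9.05 ± 0.32 at day 9 to 8.25 ± 0.55 at day 3, and the treated groups followed, from 8.05 ± 0.31 at day 9 to 6.95 ± 0.47 at day 3 (SD, n = 3). Each group overlapped its neighbour in that order.

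Markers of the myeloid cells that are known to make Nlrp12 were low in these livers, and single genes of them did not pass. Of 11 measured neutrophil markers and 7 monocyte and dendritic cell markers, 0 passed at any day, and 8 and 4 of them were dimmer than the array-wide median. The summed log2 level of the neutrophil markers was 8.81 to 9.17 in treated and 8.71 to 8.93 in saline livers at day 3, 8.70 to 8.84 and 8.69 to 8.89 at day 9, and 8.53 to 8.63 and 8.64 to 8.70 at day 23. For the monocyte and dendritic cell markers it was 7.86 to 8.0 in treated and 7.77 to 7.93 in saline livers at day 3, 7.69 to 7.72 and 7.85 to 7.97 at day 9, and 7.67 to 7.85 and 7.75 to 7.92 at day 23. The summed levels thus lay wholly lower in treated livers for the monocyte and dendritic cell markers at day 9 and for the neutrophil markers at day 23, and overlapped on the other days. Median differences of the neutrophil markers were 0.115, -0.064 and -0.078 at days 3, 9 and 23, with 2 of 11 negative at day 3. For the monocyte and dendritic cell markers they were 0.142, -0.136 and -0.078, with 0 of 7 negative at day 3. Of 8 Kupffer cell markers, 6 rose at day 3 and 0 at days 9 and 23, beside 2.63%, 1.91% and 0.187% of all genes. Their summed level at day 3 was 12.60 to 13.21 in treated and 11.42 to 12.46 in saline livers. Their summed level was wholly higher in treated livers at day 9 too, at 12.17 to 12.42 against 11.82 to 12.16 in saline livers, and that of 7 lymphocyte markers at day 3, at 7.83 to 7.95 against 7.59 to 7.72. Marco, a scavenger receptor of macrophages, was 3.95-fold higher at day 3 (log2 1.98, SE 0.35, adjusted p = 0.00306), and its call held in each alternative. Clec4f and Cd68 were higher by 1.04 and 1.03 at day 3 (limma adjusted p = 0.00265 and 0.00811). Their calls ended in 1 and 2 of 15 alternatives, for both in the fit on the arrays of the day. Ncr1, a receptor of natural killer cells, was the only one of 7 lymphocyte markers to pass, at day 3 (log2 0.42, SE 0.11, adjusted p = 0.0437; up to 0.142 over its alternatives, with the call ended in 9 of 13). The part of these cells in the Nlrp12 values was not tested.

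Of 17 measured NOD-like receptor and inflammasome genes, 1 rose at day 3 (2.63% of all genes did), 1 fell at day 9 (0.896% of all genes did) and 0 passed at day 23, with list medians of 0.11, 0.02 and -0.13. Pycard, the adaptor that links receptors to caspase 1, had a difference of 0.84 at day 3 (6.36 in treated and 5.52 in saline livers, SE 0.23, adjusted p = 0.0433). Its call ended in 4 of 6 fits without 1 array and with the mean of its probe sets, where the difference was 0.28 (adjusted p up to 0.191 over its alternatives). Gsdmd, the pore-forming protein gasdermin D, fell at day 9, with 7.81 in treated and 8.37 in saline livers (log2 -0.56, SE 0.10, adjusted p = 0.00564). It differed by -0.29 at day 3 (adjusted p = 0.102) and by -0.42 at day 23 (adjusted p = 0.0568). Of the nearest tested genes on the chromosome, Myadm was higher by 0.65 at day 3 (SE 0.13, adjusted p = 0.00792), opposite in sign to Nlrp12, and AU018091 was dim, at 3.43 in treated and 3.59 in saline livers.

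**Figure D3:**
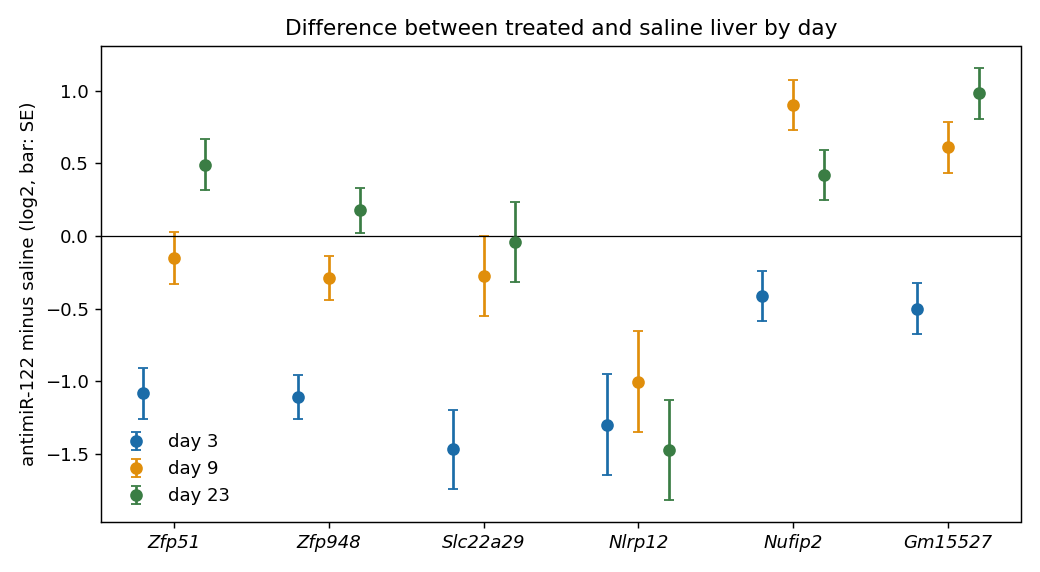
Log2 difference of treated minus saline livers (y axis, bar: SE of the fit) for each gene (x axis), in blue for day 3, orange for day 9 and green for day 23. Nlrp12 stays between -1.0 and -1.47 on all days, while Nufip2 and Gm15527 lie below 0 at day 3 and above 0 at days 9 and 23.

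Nufip2 differed less at day 3 than at day 9, and in the other direction. Its brightest probe set read 7.16, 7.56 and 6.91 in treated livers at day 3, against 7.83, 7.46 and 7.59 in saline livers. These groups overlapped, and the log2 difference was -0.41 (SE 0.17), or -0.27 without treated replicate 3. At day 9 the treated livers had 8.31, 8.34 and 8.25, against 7.28, 7.78 and 7.13 in saline livers, a difference of 0.90 (SE 0.17) with no overlap. The effect thus differed by 1.32 (SE 0.25) between the days, of which 1.09 was a higher treated mean and 0.23 a lower saline mean. At day 23 treated livers had 7.85, 8.26 and 8.38, against 7.69, 7.78 and 7.76 in saline livers, apart but not past the test (log2 0.42, SE 0.17, limma adjusted p = 0.288). The treated livers of days 9 and 23 led the order of means at 8.30 ± 0.05 and 8.17 ± 0.28 (SD, n = 3) and overlapped, a gap separated them from the other 4 groups, and treated livers of day 3 came last at 7.21 ± 0.33.

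The other Nufip2 probe sets did not show this pattern. The first of them differed by 0.00 at day 3, 0.16 at day 9 and 0.10 at day 23, with an SE of 0.13 and overlap on each day. The second differed by -0.07, -0.12 and 0.33 (SE 0.13), and at day 23 its 3 treated livers, at 6.5, 6.55 and 6.69, lay above the saline livers at 6.28, 6.14 and 6.31 (limma adjusted p = 0.301 over every probe set). This second probe set and the brightest one were designed from the same database sequence. With the mean of the 3 probe sets the day 9 difference was 0.32 in place of 0.90, and the change of effect between days 3 and 9 was 0.48 in place of 1.32. For Nufip2 the lower day 3 level thus rests on 1 of 3 probe sets, and there on overlapping groups.

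**Figure D4:**
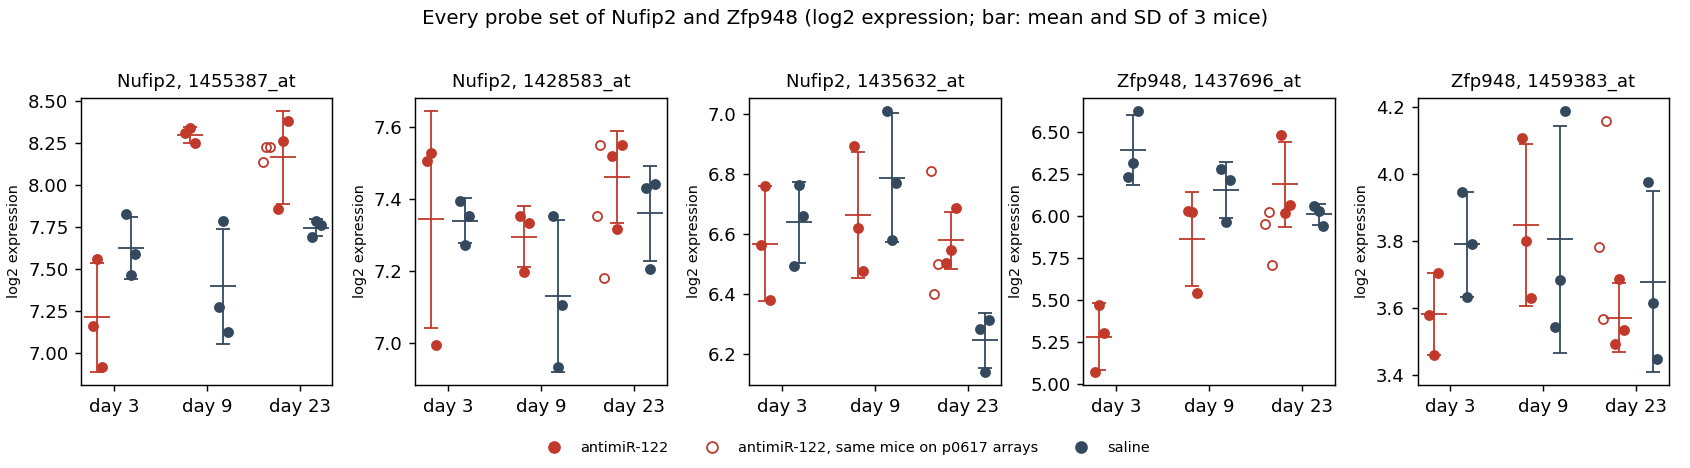
Log2 expression on every probe set of Nufip2 (3 panels) and Zfp948 (2 panels), by day on the x axis, with treated livers in red left of saline livers in dark blue, open red points for the same treated mice on p0617 arrays, and bars for the mean and SD of 3 mice. The brightest probe set of each gene, in the first panel of the gene, shows the separation at day 9 (Nufip2) or day 3 (Zfp948), and the other panels overlap on those days.

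Of 17 measured partners of Nufip2 and other stress granule proteins, 1 rose at day 3 (2.63% of all genes did) and 0 passed at day 9 or 23, with medians of -0.07, 0.04 and 0.04. The gene that rose was G3bp2, a stress granule scaffold, at 10.79 in treated and 10.09 in saline livers (log2 0.70, SE 0.10, adjusted p = 0.000603), and its call held in each of its alternatives. Next to Nufip2 on the chromosome, the kinase gene Taok1 differed by -0.18, 0.51 and 0.43 at days 3, 9 and 23 (SE 0.16), which did not pass (adjusted p = 0.62, 0.0956 and 0.213). The neighbour on the other side, the lens crystallin gene Cryba1, was dim, at 3.80 in treated and 3.77 in saline livers at day 3.

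Gm15527 was the 1 gene of the 6 that passed on the day not used to choose it. At day 23 its level was 5.34, 5.61 and 6.0 in treated livers, against 4.65, 4.63 and 4.72 in saline livers. It was 1.98-fold higher in treated livers (log2 0.98, SE 0.18, limma adjusted p = 0.0338), with all 3 treated livers above all saline livers. The saline mean of 4.67 is a dim value, under the array-wide median of 4.79. The same treated mice had 5.23, 5.71 and 5.94 on p0617 arrays, within 0.11 of their p0621 values, and the difference with these arrays was 0.96 (adjusted p = 0.0294). That comparison crosses the sets and keeps the same mice and saline arrays, so it is no independent test. The call ended in 5 of 6 fits that left out 1 array of the day, namely treated replicate 2 (adjusted p = 0.094) or 3 (0.0943) and saline replicate 1 (0.0509), 2 (0.106) or 3 (0.0774), with log2 differences of 0.81 to 1.14 over all 6. It also ended in the fit on the 6 arrays of the day alone (adjusted p = 0.163; 0.0161 to 0.163 over its alternatives).

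At day 3 Gm15527 was on the other side, with 4.78, 4.81 and 4.67 in treated livers, against 5.30, 5.26 and 5.21 in saline livers, a log2 difference of -0.50 (SE 0.18). Both groups were tight and did not overlap, and the treated mean of 4.75 was under the array-wide median of 4.79. At day 9 treated livers had 5.47, 5.90 and 6.30 and saline livers 5.20, 5.54 and 5.09, so the lowest treated liver lay below the highest saline liver (difference 0.61, SE 0.18; 0.41 without treated replicate 3). The change of effect from day 3 to day 9 of 1.11 (SE 0.25) came from the treated mice, whose mean was 1.13 higher at day 9, while the saline mean differed by 0.02. Saline livers in turn were lower on day 23, at 4.67 ± 0.05, than on days 3 and 9, at 5.26 ± 0.04 and 5.28 ± 0.24 (SD, n = 3), but day 23 was read in the other array set, and a shared normalization of both sets is not stated in the sources. The treated livers of day 9 led the order at 5.89 ± 0.42, and the 1 gap in the order lay between saline livers and treated livers of day 3. The nearest genes with a value on either side, 9530036M11Rik and 9130019P16Rik, were dim at 3.16 to 3.70 in every group, and 0 of their differences passed.

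Genes whose profile over the 18 livers was most like each member were found by the root mean square difference of the values, each gene centred on its mean and scaled by its SD, among genes above the median level. Zfp51 was nearest to Gtf2e2, a general transcription factor subunit (0.55 SD units), and Trnt1, which adds the CCA end to transfer RNA (0.56). Trnt1 was also the nearest to Zfp948 (0.53), followed by Rai14 (0.55), an ankyrin repeat gene. Trnt1 differed by -0.72, -0.33 and 0.33 on days 3, 9 and 23. Slc22a29 was nearest to Pkhd1 (0.54), the fibrocystin gene, which differed by -0.67, -0.09 and 0.02. Nlrp12 was nearest to Imp3 (0.47), a protein of ribosomal RNA processing, which differed by -0.30, -0.12 and -0.38. At day 3, Gtf2e2, Trnt1, Pkhd1 and Imp3 had smaller differences than the members they resemble, and Rai14 had a larger one at -3.90.

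Nufip2 and Gm15527 had the closest matches. Nufip2 was nearest to Ankhd1 (0.37), another ankyrin repeat gene, which differed by -0.18, 0.93 and 0.53, and to Atp2b1 (0.42), a calcium pump gene, at -0.32, 0.48 and 0.43. Dync1li1, a dynein chain gene, followed (0.42) at -0.26, 0.97 and 0.48. Gm15527 was nearest to Tshz1 (0.37), a zinc finger gene, at -0.14, 0.29 and 0.48, and to Scaf11 (0.49), a splicing-related gene, at -0.24, 0.83 and 1.39. These profiles include the days that chose the members, and likeness over 18 livers is a description.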

How the data were processed

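Liver RNA of 18 mice was measured on 21 arrays. The authors deposited RMA summaries on the log2 scale, 1 value for each probe set and array, as the submitters' processing notes name the tool. No version of RMA is given in the sources used here, nor whether both array sets went through it jointly. Array medians were 4.75 to 4.82, and 0 pairs of arrays were identical. The design calls the 3 mice of a group biological replicates. Mouse numbers recur on different days and were taken as different animals.

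Of 45101 probe sets, 34945 had 1 gene symbol in the platform annotation, 932 had several, 9160 had none and 64 were controls. A gene took the value of its brightest probe set by the mean of 18 arrays (p0621 for day 23), which gave 18193 genes. RefSeq identifiers were found for 34741 probe sets and updated 0 symbols. RefSeq (GRCm38.p6) served for names, gene order and the 250 bases before a start.

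The 6 group means of 18 arrays were fitted with limma (12 residual and 4.85 prior degrees of freedom), two-sided, with Benjamini-Hochberg adjustment over 18193 genes and a threshold of 0.05. SE values come from this fit and SD values from 3 mice. For every gene named outside the 6, the same fit gave the adjusted p. The 6 genes, the lists and the tests were chosen with earlier results of these data known. Named genes were the 6 with every probe set, their nearest tested neighbours, the 3 most alike genes of each, up to 3 passing genes of a list (or its 2 brightest) and Aldoa, Bckdk and Ndrg3. Other settings were quantile normalization, median centring, filters on level, the mean of probe sets, every probe set, the replicate number as a block, a trended robust prior, the arrays of the day alone, the other arrays of the treated mice, a 1.5-fold minimum and leaving out each array. Whether equal replicate numbers pair mice was checked by the correlation of their deviations over genes. The fit was tested on simulated data before use. R 4.3.3, limma 3.58.1, Python 3.11.15, pandas 2.3.3 and matplotlib 3.10.9 were used.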

Additional observations from a re-analysis of the deposited data

Results flagged for a closer look

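Among the 6 genes, Zfp51 and Gm15527 lay wholly below saline livers at day 3 and wholly above them at day 23, on the arrays compared. Zfp51 differed by -1.09 at day 3 and by 0.49 at day 23 (treated minus saline, log2), which did not pass (limma adjusted p = 0.208). On p0617 arrays the same treated mice had Zfp51 levels of 4.98 to 5.11, which overlap 4.86 to 5.06 in saline livers, and the difference was 0.10 (adjusted p = 0.838). Gm15527 differed by -0.50 at day 3 and by 0.98 at day 23 (adjusted p = 0.0338). The difference between the days was not tested, since day 3 chose the genes.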

How the results depend on the processing

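The number of genes passing at day 23 was 70 and depended on most settings. It was 0 in the fit on the arrays of the day alone and 0 with the replicate block (limma, with 2372 and 2375 genes at an unadjusted p under 0.05), 139 after quantile normalization, 43 after median centring, 214 above the median level, 389 above the 75th percentile and 210 with a trended robust prior. It was 179 with the p0617 arrays of the treated mice, 25 with the mean of both arrays of a mouse, 23 at 1.5-fold, and 3 to 72 when 1 array was left out (22, 3 and 6 without treated replicates 1, 2 and 3, and 5 and 13 without saline replicates 2 and 3). The replicate block gave Gm15527 an adjusted p of 0.102 at day 23. The deviations of equally numbered mice had correlations of -0.137 to 0.076 over genes, which cannot settle whether the mice were paired. The block ended the calls of Pycard, Cd68, Ncr1 and Zfp983 among the named genes. At day 23 Zfp948 turned to -0.12 with the p0617 arrays of the treated mice, and Slc22a29, at -0.04, ranged from -0.22 to 0.12 without 1 array, turning positive without treated replicate 2 (0.12) or saline replicate 1 (0.07). With the p0617 arrays of the treated mice Slc22a29 was at -0.37 (limma adjusted p = 0.543). The median of the 6 genes ranged from -1.23 to -1.02 at day 3 and from -0.29 to -0.09 at day 9 without 1 array, and its change between these days from 0.92 to 1.13. The counts of genes wholly below saline kept their values of 5, 1 and 1 in each of 3 other settings, namely quantile normalization, median centring and the mean of probe sets. The p0617 arrays of the treated mice were not among these settings. With them Slc22a29 also lay wholly below saline at day 23, and Zfp51 no longer lay wholly above. With the mean of probe sets the day 3 difference of Zfp948 was -0.66 in place of -1.11. Of 17 calls of named genes outside the 6, 10 held in each alternative run. They were the calls of the check genes Aldoa, Bckdk and Ndrg3 at days 3 and 9, and those of Gsdmd, G3bp2, Marco and Myadm. The cause of the changes between settings was not tested.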
